A study of Mus musculus with 12 samples.

Results

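Interferon-stimulated genes are the genes that cells switch on after interferon binds its receptor. The 38 listed here were chosen by what they are known to do in the interferon response. Each was matched to the probes whose transcript accession belongs to its symbol, and the brightest probe stood for the gene. A probe was found for 36 of the 38, out of 17305 genes with a probe on the array, and Mx1 and Mx2 had none. No filter on low signals was applied. Of the 36 genes, 35 were well above background on all 12 arrays, and Oas3 was so on 7.

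Type I interferons signal through the receptor that holds IFNAR1, and interferon gamma through the receptor that holds IFNGR1. JAK kinases then phosphorylate STAT proteins. A complex of STAT proteins with IRF9 binds the interferon-stimulated response element (ISRE), and the gamma-activated site (GAS) is a further element of such promoters. The induced genes encode sensors of foreign nucleic acid, proteins that block viral RNA and translation, GTPases that attack membranes around microbes, and transcription factors that amplify the response. In pancreatic islets the same genes are known from the insulitis of autoimmune diabetes and from exposure of beta cells to cytokines.

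Islets of female mice of mixed C57BL/6 x Sv129 background on a chow diet were compared on single-colour arrays, with 3 arrays for each of 4 genotypes. WT carries both genes intact. PPARγ2KO lacks the PPARγ2 isoform, ob/ob lacks leptin, and POKO (OB PPARg2 double KO in the labels) lacks both. The labels give an age of 4 weeks and the study's text an older one. Each array holds RNA pooled from the islets of 3 to 4 mice, cultured overnight after isolation, so the spread between arrays is that between pools. The probe for Pparg averaged 8.90 in WT, 7.10 in PPARγ2KO, 9.31 in ob/ob and 6.89 in POKO (log2 signal), lower in both knockout genotypes, and does not tell the isoforms apart here. The probe for Lep was not above background on any array. Markers of islet endocrine cells were above background on every array (14 or 15 of 15), as were all 12 acinar markers, so the preparations held exocrine RNA too. In bulk RNA, fewer cells of a type and less RNA per cell cannot be told apart.

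The scanner headers place the 4 arrays of each replicate number on the same slide, with each genotype at the same position on all 3 slides. Genotype and position on the slide therefore cannot be told apart, while slides can be compared. The median processed signal was 20.9 to 27.0 on the WT arrays, 23.0 to 30.4 on PPARγ2KO, 30.7 to 40.6 on ob/ob and 31.6 to 33.6 on POKO. Quantile normalization removed these differences in brightness, and the part of the remaining ones in the results was not tested. Several arrays stood apart in cell type markers, given here as the mean log2 signal of a marker list relative to its mean over the 12 arrays. PPARγ2KO replicate 2 carried T and B cell markers at the level of the leptin-deficient arrays. Fibroblast markers read 0.97 on ob/ob replicate 1 against -0.87 and -1.03 on the other ob/ob arrays, and 1.02 on POKO replicate 2 against 0.03 and 0.09 on the other POKO arrays. Values without PPARγ2KO replicate 2 are given beside the comparisons that involve PPARγ2KO. Those without ob/ob replicate 1 are given beside ob/ob vs. WT, and those without POKO replicate 2 beside POKO vs. WT.

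Promoter sequence was read for the ISRE and GAS motifs. RefSeq windows (GRCm38.p6) from 250 bases before to 50 bases after the start were at hand for 30 of the 38 genes. The ISRE core GAAANNGAAA was searched on both strands, where it may overlap itself. It was present in 17 of these 30 genes (56.7%), against 3.99% of the 27025 genes with a window. The GAS letters TTCNNNGAA, which read the same on both strands, were in 11 of the 30 (36.7%), against 9.55% of all genes. Among the 18 genes with a window that passed the test in ob/ob vs. WT, 8 had an ISRE core (44.4%), against 9 of the 12 that did not (75%). A match describes these letters in this window and is not a measured binding site.

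The following stretches upstream of the start belong to 5 genes that passed the test and have an upstream ISRE core, taken in order of the number of comparisons passed and then of the adjusted p. They are written 5′ to 3′ on the strand of the gene, and capitals mark the cores. Ifit1 is at chr19:34640765-34640833 (plus strand), Ifit3 at chr19:34583353-34583436 (plus), Igtp at chr11:58199502-58199551 (plus), Irgm1 at chr11:48871421-48871470 (minus) and Gbp2 at chr3:142620584-142620633 (plus).
Ifit1: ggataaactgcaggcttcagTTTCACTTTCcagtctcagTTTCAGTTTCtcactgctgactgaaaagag
Ifit3: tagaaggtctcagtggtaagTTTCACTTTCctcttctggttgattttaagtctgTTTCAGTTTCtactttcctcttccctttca
Igtp: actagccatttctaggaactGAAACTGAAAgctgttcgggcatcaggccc
Irgm1: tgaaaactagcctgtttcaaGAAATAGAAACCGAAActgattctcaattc
Gbp2: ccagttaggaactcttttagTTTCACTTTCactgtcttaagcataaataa
Ifit1 and Ifit3 each hold 2 separate cores on the opposite strand, Irgm1 holds 2 overlapping ones, and Igtp and Gbp2 hold 1 each.

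In ob/ob islets the interferon genes were higher than in WT islets, a comparison that asks what leptin deficiency changes in young islets. By limma, 24 of 36 genes were called (adjusted p at most 0.05 over 41174 probes), all of them higher, against 4.92% of all probes called higher. The log2 fold change was above 0 for 35 of 36 genes, with a median of 1.36, beside a median of -0.08 over all probes. All 6 interferon-inducible GTPases were called, as were both genes of the ISG15 pathway, 4 of 5 transcription factors, 9 of 14 measured antiviral effectors, 2 of 4 nucleic acid sensors and 1 of 2 receptors. None of the 3 membrane restriction factors was called (1 had an unadjusted p under 0.05). At an unadjusted p under 0.05, 30 of 36 were higher (12.3% of all probes), and 21 of the 24 called genes changed by at least 1 on the log2 scale. Of all probes, 3.56% were called higher with such a change. The ob/ob arrays lay above all WT arrays for 29 of 36 genes (11.3% of all probes).

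**Figure D1:**
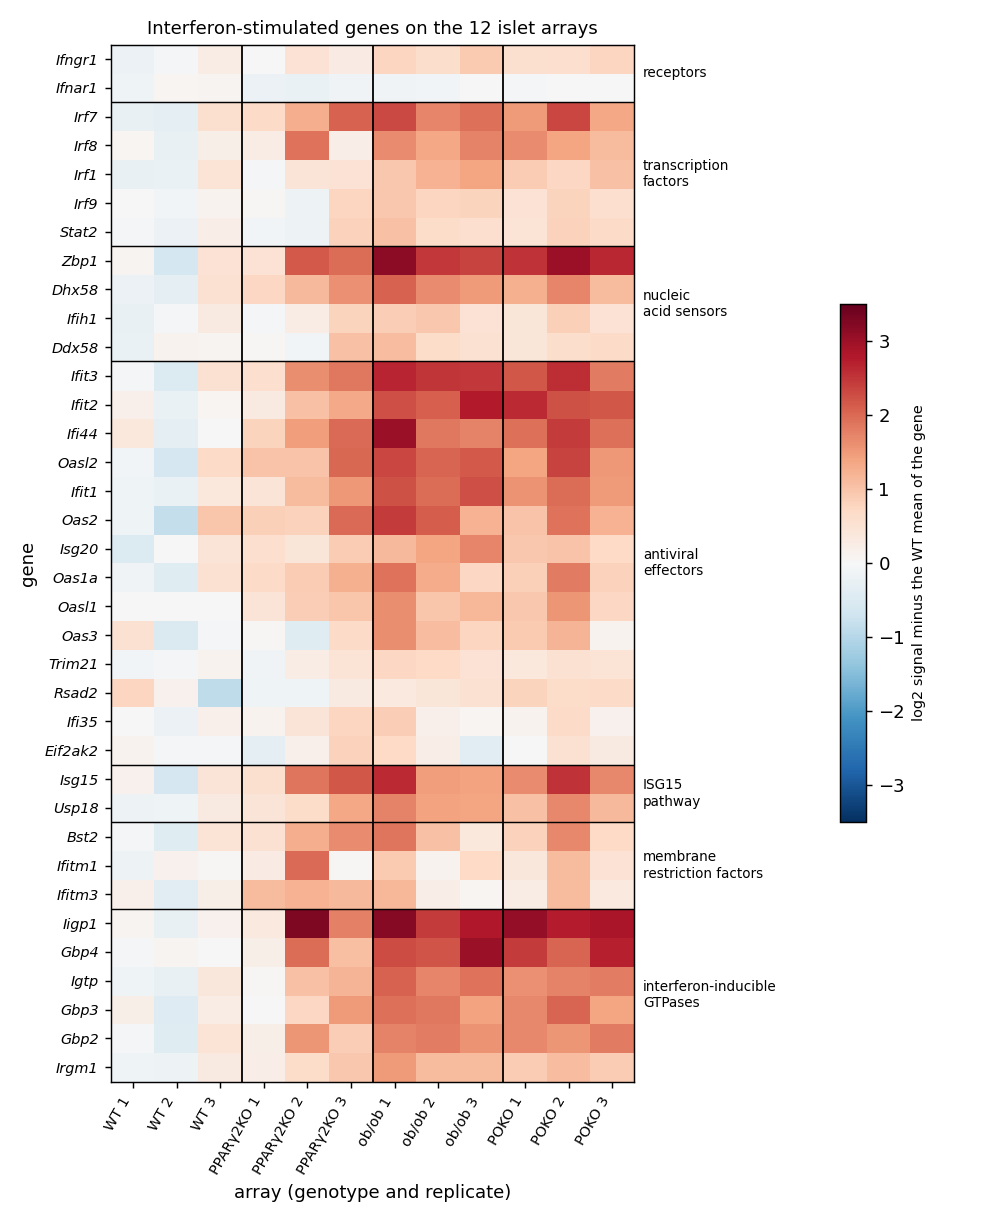
Each row is 1 of the 36 measured interferon genes, grouped by role, and each column 1 array; colour gives the log2 signal minus the mean of the 3 WT arrays, blue below and red above it. The ob/ob and POKO columns are red for most genes, and the PPARγ2KO columns differ among themselves.

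The count rested on single arrays. It was 5 without WT replicate 1, 2 without WT replicate 2, 5 without ob/ob replicate 2 and 6 without ob/ob replicate 3, and 19 to 27 when any other array was left out. The share of all probes called higher fell along with it, from 4.92% to 0.668%, 0.265%, 0.6% and 0.653% in those 4 omissions. In the other omissions that share was 2.47% to 8.32%. With only the 6 arrays of these genotypes in the fit the count was 10 (1.12% of all probes). Without ob/ob replicate 1, the array high in fibroblast markers, 19 genes were called and the median was 1.34. The share of all probes called higher rose there, to 6.09%. The median over the genes moved little, from 1.33 to 1.61 when single arrays were left out. Ifit1 and Ifit2 were called under all 22 alternatives. Within slides the median difference was 1.67 on slide 1, 1.56 on slide 2 and 0.95 on slide 3, and 29 of 36 genes were higher in ob/ob on all 3 slides. The share of all probes higher on all 3 slides was not counted.

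The receptor chains behaved unequally. Signals below are normalized log2 values in the order of replicates 1 to 3. Ifngr1, the ligand-binding chain of the interferon gamma receptor, read 10.64, 10.78 and 11.08 in WT, 10.84, 11.34 and 11.13 in PPARγ2KO, 11.59, 11.44 and 11.76 in ob/ob, and 11.38, 11.43 and 11.57 in POKO. All 6 leptin-deficient arrays were above all 6 lean ones, and the ob/ob vs. WT difference was 0.77 ± 0.16 (SE, adjusted p = 0.027). Ifnar1, a chain of the type I receptor, read 9.42, 9.64 and 9.66 in WT, 9.37, 9.33 and 9.45 in PPARγ2KO, 9.45, 9.48 and 9.58 in ob/ob, and 9.53, 9.56 and 9.55 in POKO. Its ob/ob and WT arrays overlapped, with a difference of -0.07 (95% interval -0.26 to 0.12, adjusted p = 0.587).

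Of the transcription factors, Irf7, the amplifier of type I interferon production, had the largest change in ob/ob. Irf7 read 8.23, 8.17 and 9.05 in WT, 9.15, 9.76 and 10.55 in PPARγ2KO, 10.79, 10.21 and 10.42 in ob/ob, and 9.98, 10.81 and 9.84 in POKO. No WT array reached the lowest array of another genotype, and ob/ob exceeded WT by 1.98 ± 0.40 (SE, adjusted p = 0.0267). Irf8, a factor of myeloid and B cells that interferon gamma induces, read 8.02, 7.68 and 8.16 in WT, 8.20, 9.84 and 8.19 in PPARγ2KO, 9.62, 9.30 and 9.69 in ob/ob, and 9.61, 9.33 and 9.07 in POKO. Here PPARγ2KO replicate 2 was the highest of the 12 arrays while the other PPARγ2KO arrays stayed next to WT. The ob/ob vs. WT difference in Irf8 was 1.58 ± 0.40 (adjusted p = 0.0389, and 0.058 with the slide as a block).

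Irf1, a factor induced early by interferon, read 10.83, 10.86 and 11.58 in WT, 11.04, 11.54 and 11.60 in PPARγ2KO, 12.04, 12.31 and 12.47 in ob/ob, and 11.97, 11.82 and 12.12 in POKO. Every leptin-deficient array was above every lean array, and ob/ob exceeded WT by 1.18 ± 0.23 (adjusted p = 0.0248). Irf9, the DNA-binding partner of the STAT complex, read 9.62, 9.54 and 9.75 in WT, 9.69, 9.47 and 10.39 in PPARγ2KO, 10.57, 10.40 and 10.41 in ob/ob, and 10.15, 10.42 and 10.23 in POKO. It was 0.82 ± 0.21 higher in ob/ob than in WT (adjusted p = 0.0383, and 0.057 with scaling to the 75th percentile), and 1 PPARγ2KO array lay in the range of the leptin-deficient ones. Dimmer probes of Irf1 and Irf9 differed in the same direction, by 0.79 and 0.71, without passing (adjusted p = 0.0996 and 0.241). Stat2, a STAT protein of that complex, was 0.76 higher in ob/ob without passing the test (adjusted p = 0.0836).

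Among the sensors, Zbp1, which binds left-handed nucleic acid, differed most. Zbp1 read 7.96, 7.26 and 8.37 in WT, 8.36, 10.01 and 9.83 in PPARγ2KO, 10.98, 10.35 and 10.23 in ob/ob, and 10.40, 10.87 and 10.49 in POKO. The lean and leptin-deficient arrays did not overlap, and ob/ob exceeded WT by 2.66 ± 0.45, a 6.30-fold difference (adjusted p = 0.0188). Dhx58, the regulatory relative of RIG-I, read 7.33, 7.19 and 8.07 in WT, 8.24, 8.67 and 9.12 in PPARγ2KO, 9.602, 9.19 and 9.02 in ob/ob, and 8.77, 9.25 and 8.64 in POKO. All 9 arrays of the other genotypes were above the WT arrays, and the ob/ob difference was 1.74 ± 0.30 (adjusted p = 0.0202). The RNA helicases Ddx58 (RIG-I) and Ifih1 (MDA5) did not overlap between ob/ob and WT either, with smaller differences of 0.76 and 0.77 that did not pass the test (adjusted p = 0.101 and 0.063). The probes of Ddx58 disagreed: a dimmer one, above background on all 12 arrays, gave 1.07 and passed (adjusted p = 0.027), and the others did not.

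The Ifit genes, whose proteins bind foreign RNA and hold back its translation, gave the firmest calls. Ifit2 read 5.39, 5.003 and 5.28 in WT, 5.54, 6.25 and 6.56 in PPARγ2KO, 7.48, 7.32 and 8.001 in ob/ob, and 7.83, 7.47 and 7.40 in POKO. The ob/ob and POKO arrays were all above the 6 lean arrays. The ob/ob vs. WT difference was 2.37 ± 0.27, or 5.19-fold (adjusted p = 0.0103), and within slides it was 2.09, 2.32 and 2.72. A dimmer probe for Ifit2 gave 2.51 (adjusted p = 0.00613). Ifit3 read 9.69, 9.31 and 10.32 in WT, 10.36, 11.40 and 11.62 in PPARγ2KO, 12.43, 12.28 and 12.26 in ob/ob, and 11.94, 12.35 and 11.60 in POKO. Its ob/ob arrays lay within a narrow range above all lean ones, 2.55 ± 0.36 above WT (5.86-fold, adjusted p = 0.0141). Ifit1 read 7.68, 7.58 and 8.18 in WT, 8.26, 8.93 and 9.32 in PPARγ2KO, 10.04, 9.78 and 10.08 in ob/ob, and 9.38, 9.78 and 9.31 in POKO. WT was below all other arrays and the ob/ob arrays were above all lean ones, and ob/ob exceeded WT by 2.15 ± 0.27 (adjusted p = 0.0117).

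The oligoadenylate synthetases make the second messenger that activates RNase L. Oas2 read 6.42, 5.75 and 7.54 in WT, 7.40, 7.39 and 8.55 in PPARγ2KO, 9.01, 8.70 and 7.78 in ob/ob, and 7.58, 8.47 and 7.78 in POKO. Its WT arrays spread almost as widely as the genotypes differed, and its call in ob/ob (1.92 ± 0.52, adjusted p = 0.0475) was lost with the slide as a block (adjusted p = 0.0691). Oas1a was 1.31 higher in ob/ob (adjusted p = 0.0558). Oas3 was not above background on any WT array and at least 1.69-fold higher in ob/ob, again short of the threshold (adjusted p = 0.0854). A dimmer probe for Oas3, above background on 6 arrays, did pass (adjusted p = 0.046).

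The related Oasl genes encode synthetase-like proteins. Oasl1 read 8.59, 8.55 and 8.56 in WT, 9.02, 9.43 and 9.54 in PPARγ2KO, 10.19, 9.55 and 9.74 in ob/ob, and 9.51, 10.12 and 9.30 in POKO. The 3 WT arrays were almost the same and all others were higher, and the ob/ob difference was 1.26 ± 0.24 (adjusted p = 0.0235). Oasl2 read 8.59, 8.09 and 9.36 in WT, 9.67, 9.69 and 10.69 in PPARγ2KO, 11.01, 10.71 and 10.83 in ob/ob, and 10.07, 11.05 and 10.19 in POKO. It too was lowest in WT on every array, 2.17 ± 0.39 below ob/ob (adjusted p = 0.0217).

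Ifi44, an interferon-induced gene, read 7.49, 6.78 and 7.11 in WT, 7.91, 8.58 and 9.11 in PPARγ2KO, 10.15, 8.98 and 8.87 in ob/ob, and 9.04, 9.58 and 9.06 in POKO. WT was below all other arrays, and ob/ob replicate 1 stood above the rest. The ob/ob vs. WT difference was 2.21 ± 0.40 (adjusted p = 0.0217). Isg20, an RNA exonuclease, read 10.99, 11.47 and 11.93 in WT, 12.06, 11.89 and 12.35 in PPARγ2KO, 12.60, 12.85 and 13.17 in ob/ob, and 12.41, 12.47 and 12.16 in POKO. Its ob/ob arrays exceeded all 9 others, by 1.41 ± 0.24 over WT (adjusted p = 0.0195). Trim21, a cytosolic antibody receptor, read 6.97, 6.995 and 7.18 in WT, 6.92, 7.30 and 7.51 in PPARγ2KO, 7.78, 7.73 and 7.55 in ob/ob, and 7.41, 7.57 and 7.53 in POKO. The ob/ob arrays lay just above all lean ones, WT and PPARγ2KO overlapped, and the ob/ob difference was 0.64 ± 0.15 (adjusted p = 0.0321).

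Other effectors did not pass the test. Eif2ak2, the kinase PKR that stops translation on double-stranded RNA, read 6.97, 6.79 and 6.79 in WT, 6.53, 7.03 and 7.67 in PPARγ2KO, 7.55, 7.07 and 6.44 in ob/ob, and 6.88, 7.39 and 7.17 in POKO. All genotypes overlapped, with an ob/ob vs. WT difference of 0.17 (95% interval -0.56 to 0.90, adjusted p = 0.748). Ifi35 read 10.26, 10.04 and 10.42 in WT, 10.37, 10.70 and 10.99 in PPARγ2KO, 11.09, 10.43 and 10.32 in ob/ob, and 10.35, 10.90 and 10.40 in POKO. Again the genotypes overlapped (0.37, adjusted p = 0.326). Rsad2, which encodes the antiviral enzyme viperin, differed by 0.44 (95% interval -0.31 to 1.19, adjusted p = 0.391), and its 2 dimmer probes by 0.49 and 0.40.

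Isg15, the ubiquitin-like modifier, read 8.98, 8.23 and 9.28 in WT, 9.39, 10.70 and 10.99 in PPARγ2KO, 11.43, 10.30 and 10.23 in ob/ob, and 10.47, 11.36 and 10.50 in POKO. WT was lowest throughout and the other genotypes overlapped. The ob/ob difference of 1.82 ± 0.50 (adjusted p = 0.0481) was not past the threshold with the slide as a block (adjusted p = 0.0749). Usp18, the protease that removes ISG15 and damps the receptor, read 9.46, 9.50 and 9.96 in WT, 10.103, 10.29 and 10.99 in PPARγ2KO, 11.38, 11.03 and 11.02 in ob/ob, and 10.65, 11.31 and 10.77 in POKO. It was higher in ob/ob than on all lean arrays, 1.51 ± 0.26 above WT (adjusted p = 0.0204).

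The means of the membrane restriction factors ran in another order of genotypes. Ifitm3, which blocks fusion of viruses in endosomes, read 12.51, 11.94 and 12.55 in WT, 13.44, 13.54 and 13.46 in PPARγ2KO, 13.51, 12.57 and 12.41 in ob/ob, and 12.59, 13.45 and 12.69 in POKO. It was high on all PPARγ2KO arrays and on 1 array each of ob/ob and POKO. The ob/ob vs. WT difference was 0.50 (adjusted p = 0.319), and PPARγ2KO vs. WT 1.15 ± 0.32 (adjusted p = 0.457). Bst2, the tetherin that retains virus particles at the cell surface, differed by 1.09 in ob/ob (adjusted p = 0.135), and Ifitm1 by 0.58 (adjusted p = 0.412). PPARγ2KO had the highest mean of the 4 genotypes for 4 of the 36 genes, namely Ifitm1, Ifitm3, Bst2 and Ifi35. For Ifitm1 this rested on PPARγ2KO replicate 2, at 8.40 against 6.71 and 6.48 on the other PPARγ2KO arrays. For Bst2 (12.89 against 12.83 in ob/ob) and Ifi35 (10.69 against 10.61) the means were close and the arrays overlapped.

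Every GTPase of the set was called, as were both genes of the ISG15 pathway. Iigp1, an immunity-related GTPase, read 5.74, 5.39 and 5.79 in WT, 5.97, 8.89 and 7.42 in PPARγ2KO, 8.81, 8.08 and 8.45 in ob/ob, and 8.72, 8.39 and 8.51 in POKO. The PPARγ2KO arrays ran from next to WT to the highest of the 12. The ob/ob vs. WT difference, 2.81 ± 0.58 or 7.01-fold, was the largest of the 36 (adjusted p = 0.0276). Igtp and Irgm1 belong to the same family. Igtp read 9.44, 9.33 and 9.995 in WT, 9.64, 10.60 and 10.79 in PPARγ2KO, 11.66, 11.31 and 11.49 in ob/ob, and 11.19, 11.32 and 11.37 in POKO. Lean and leptin-deficient arrays were apart, with ob/ob 1.90 ± 0.29 above WT (adjusted p = 0.0159). Irgm1 read 9.72, 9.70 and 10.19 in WT, 10.11, 10.52 and 10.81 in PPARγ2KO, 11.35, 10.97 and 10.98 in ob/ob, and 10.77, 10.95 and 10.77 in POKO. It was highest in ob/ob, by 1.23 ± 0.20 over WT (adjusted p = 0.018).

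The guanylate-binding proteins are the larger GTPases of the set. Gbp4 read 4.39, 4.57 and 4.45 in WT, 4.68, 6.42 and 5.51 in PPARγ2KO, 6.76, 6.68 and 7.49 in ob/ob, and 6.91, 6.49 and 7.19 in POKO. All leptin-deficient arrays were above the lean ones, and ob/ob exceeded WT by 2.51 ± 0.40 (5.68-fold, adjusted p = 0.0175). Gbp2 read 8.13, 7.77 and 8.67 in WT, 8.39, 9.75 and 9.06 in PPARγ2KO, 9.92, 9.98 and 9.76 in ob/ob, and 9.88, 9.75 and 10.02 in POKO. Its ob/ob and POKO arrays lay together, 1.69 ± 0.32 above WT in both comparisons (adjusted p = 0.0241 in ob/ob and 0.0745 in POKO). Gbp3 read 8.79, 8.13 and 8.84 in WT, 8.61, 9.32 and 10.06 in PPARγ2KO, 10.51, 10.44 and 9.99 in ob/ob, and 10.26, 10.63 and 9.96 in POKO. The WT arrays were below all leptin-deficient ones, by 1.73 ± 0.36 in ob/ob (adjusted p = 0.0276).

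**Figure D2:**
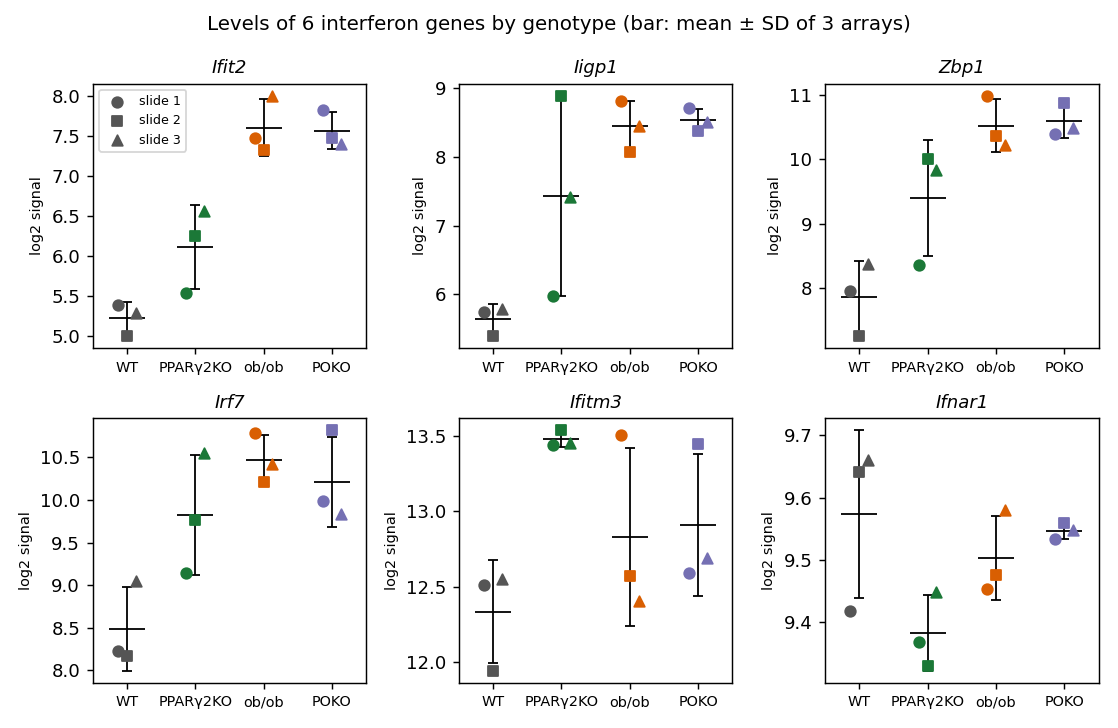
Points are the log2 signal of 6 interferon genes on each array (symbols mark the slide), and bars the mean ± SD of the 3 arrays of a genotype; each panel has its own axis. Ifit2, Iigp1, Zbp1 and Irf7 have their lowest mean in WT and are high in ob/ob and POKO, Ifitm3 is high on all PPARγ2KO arrays, and Ifnar1 spans only 9.33 to 9.66.

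POKO islets, which lack leptin and PPARγ2, were compared with WT to ask what remains of the ob/ob state without PPARγ2. The log2 fold changes were again above 0 for 35 of 36 genes, with a median of 1.11 (all probes -0.08), but 1 gene was called, against 0.163% of all probes called higher. That gene was Ifit2, 2.34 ± 0.27 above WT (adjusted p = 0.0229), with differences of 2.43, 2.46 and 2.12 within slides. Its call was lost with the slide as a block (adjusted p = 0.0664). The next were Ifit1 (1.68, adjusted p = 0.0548), Zbp1 (2.72, 0.0566), Ifit3 (2.19, 0.0566), Gbp4 (2.40, 0.0582) and Igtp (1.70, 0.0593). At an unadjusted p under 0.05, 28 of 36 genes were higher, against 6.83% of all probes, and 31 had every POKO array above every WT array, against 9.23%.

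This count depended on the processing more than any other. It was 26 with weights for single arrays (4.42% of all probes called higher), 16 with dim probes left out (1.9%), 8 with scaling to the 75th percentile (0.76%), 7 with only these genotypes in the fit (0.95%), 3 with the authors' normalized values (0.255%), and 0 with normexp background correction or the slide as a block (0.017% in each). Leaving out single arrays gave 0 to 10: it was 10 without WT replicate 3 (0.787% of all probes), 9 without PPARγ2KO replicate 1 (0.585%) or 2 (1.33%), and 4 without PPARγ2KO replicate 3 (0.325%). It was 0 without WT replicate 1 (0.0461%), WT replicate 2 (0.051%) or POKO replicate 1 (0.0316%). Without POKO replicate 2, the array high in fibroblast markers, it was 1 and the median 0.93. The median stayed between 0.93 and 1.36 over the omitted arrays. Within slides it was 1.15, 1.74 and 0.58, and 33 of 36 genes were higher in POKO on all 3 slides. Here too the share of all probes was not counted.

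**Figure D3:**
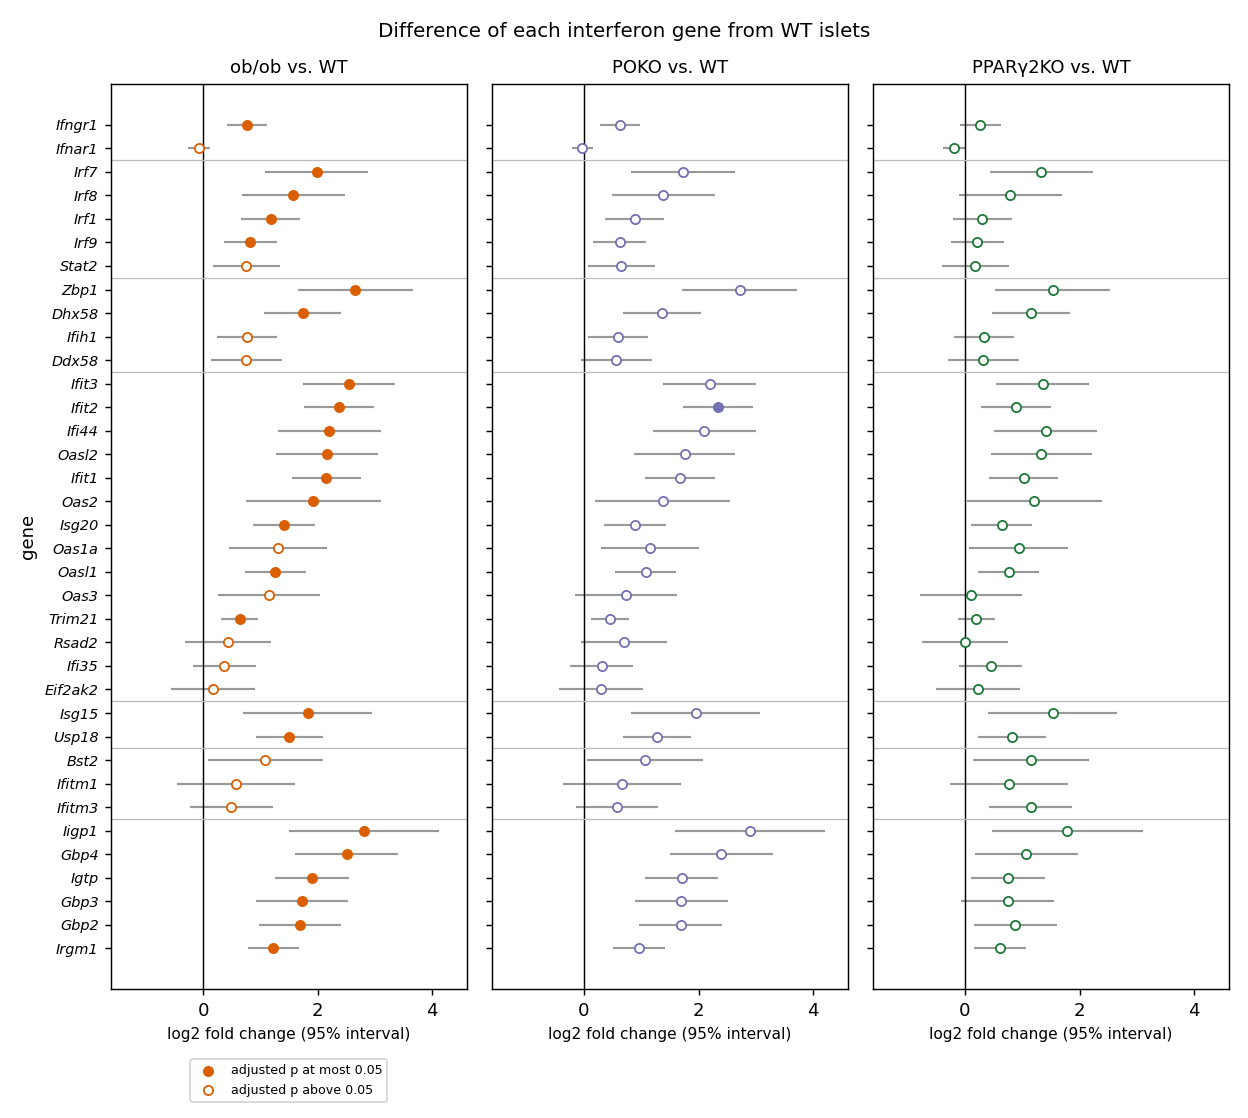
Points are the fitted log2 fold change of each interferon gene against WT in ob/ob, POKO and PPARγ2KO, with 95% intervals; filled points have an adjusted p of at most 0.05. In ob/ob 24 genes are filled and in POKO only Ifit2, while most points lie to the right of 0 in all 3 panels; the comparisons share the WT arrays.

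POKO islets were then set against ob/ob directly. None of the 36 was called by limma (0.00486% of all probes were), and none had an unadjusted p under 0.05 (9.28% of all probes). The median difference was -0.17, with 28 genes lower and 8 higher. Ifit2 differed by -0.04 (95% interval -0.65 to 0.57), Zbp1 by 0.06 (-0.94 to 1.07) and Iigp1 by 0.09 (-1.22 to 1.40). The smallest adjusted p was that of Isg20, which was lower in POKO (-0.53, interval -1.07 to 0.01, adjusted p = 0.536), with all POKO arrays below all ob/ob arrays. The lower and upper ends of the intervals reached -1.73 (Oas2) and 1.40 (Iigp1), so differences of that size could not be told from 0 with 3 arrays a genotype. Within slides the median was -0.57, 0.12 and -0.08.

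Lean PPARγ2KO islets lay between WT and the leptin-deficient genotypes. In PPARγ2KO vs. WT no gene was called by limma, nor was any probe on the array (0%). The log2 fold change was above 0 for 34 of 36 genes, with a median of 0.78 (all probes -0.03), and 22 genes had an unadjusted p under 0.05 (21 higher, and Ifnar1 lower, at -0.19), against 9.37% of all probes. The arrays did not overlap, with PPARγ2KO higher, for 16 genes, against 4.1% of all probes. The largest difference was that of Iigp1 (1.79, adjusted p = 0.482), followed by Zbp1 and Isg15 (both 1.53) and Ifi44 (1.41). Without PPARγ2KO replicate 2 the difference of Iigp1 was 1.05, that of Zbp1 1.23, Isg15 1.36 and Ifi44 1.39, and the largest was that of Oasl2 (1.498, adjusted p = 0.549). The median was then 0.67 and no gene was called, 16 genes were higher at an unadjusted p under 0.05 (3.75% of all probes higher), and 17 did not overlap (7.93%). Of the 36 genotype orders, 26 ran WT, PPARγ2KO, POKO, ob/ob from lowest to highest mean, and WT was lowest for 34. Against PPARγ2KO, no gene was called in POKO (0.00971% of all probes) or in ob/ob (0.00486%). There 10 genes in POKO (all higher; 4.67% of all probes) and 16 in ob/ob (all higher; 8.37%) had an unadjusted p under 0.05. Without PPARγ2KO replicate 2 these were 10 and 15, and Irf8 (1.34, adjusted p = 0.0291) and Gbp4 (1.88, 0.0478) were called in ob/ob.

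The PPARγ2KO arrays differed among themselves more than those of the other genotypes. The median over genes of the SD between arrays was 0.55 in PPARγ2KO, against 0.33 in WT, 0.29 in ob/ob and 0.27 in POKO, and it was 0.61 in PPARγ2KO without replicate 2. PPARγ2KO replicate 1 exceeded all WT arrays for 18 of 36 genes, replicate 2 for 26 and replicate 3 for 33. The share of all probes that did so on each array was not counted, so these numbers compare the 3 arrays only. Each genotype had an array that was highest for most of the genes: WT replicate 3 (27 of 36), PPARγ2KO replicate 3 (28), ob/ob replicate 1 (25) and POKO replicate 2 (26). These arrays come from all 3 slides. The endothelial markers were highest on the same arrays, at -0.15 on WT replicate 3 (-0.75 and -1.14 on the others), 0.45 on PPARγ2KO replicate 3 (-0.45 and -0.07), 0.68 on ob/ob replicate 1 (0.31 and 0.49) and 0.53 on POKO replicate 2 (0.05 and 0.04). Within their genotypes, ob/ob replicate 1 and POKO replicate 2 were highest for the fibroblast markers too. The part of either marker list in the result was not tested.

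The interaction asks whether the loss of PPARγ2 changes islets differently with and without leptin. It was below 0 for 34 of 36 genes, with a median of -0.95 (all probes 0.04), as most genes were higher in PPARγ2KO than in WT and lower in POKO than in ob/ob. No gene was called by limma, and no probe was (0%). At an unadjusted p under 0.05, 15 genes were lower, against 6.36% of all probes. Ifit1 had the smallest adjusted p (-1.50, 95% interval -2.36 to -0.65, adjusted p = 0.257), followed by Dhx58 (-1.53, interval -2.49 to -0.57, adjusted p = 0.266). Without PPARγ2KO replicate 2 the median was -0.84, no gene was called and 12 were lower at an unadjusted p under 0.05 (5.91% of all probes). The same WT arrays enter this term and the comparisons above.

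Over both PPARγ2 states, leptin-deficient islets (ob/ob and POKO) were set against lean ones (WT and PPARγ2KO). By limma 22 of 36 genes were called, all higher, against 4.23% of all probes called higher. All 22 are among the 24 called in ob/ob vs. WT, a comparison that uses the same arrays, and Isg15 and Oas2 are the others. The median difference was 0.88 (all probes -0.06), 30 genes were higher at an unadjusted p under 0.05 (10.6% of all probes), and 13 of the called genes changed by at least 1 (2.38% of all probes were called higher with such a change). The largest differences were those of Iigp1 (1.96, adjusted p = 0.0296), Zbp1 (1.92, 0.0178), Gbp4 (1.92, 0.0148), Ifit2 (1.91, 0.00709), Ifit3 (1.69, 0.015) and Ifi44 (1.45, 0.0252). The smallest were Ifitm3 (-0.04), Ifnar1 (0.05) and Ifi35 (0.12). All 6 leptin-deficient arrays exceeded all 6 lean ones for 6 genes (Ifngr1, Irf1, Zbp1, Ifit2, Gbp4 and Igtp), against 1.57% of all probes.

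This count too fell when single arrays were left out, to 12 and 6 without WT replicate 1 and 2, 11 without PPARγ2KO replicate 1, 10 and 11 without ob/ob replicate 2 and 3, and 5, 8 and 10 without POKO replicate 1, 2 and 3. Without PPARγ2KO replicate 2 it was 17 (3.55% of all probes called higher). The share of all probes called higher fell too, from 4.23% to 1.35% and 0.84% without WT replicate 1 and 2, 1.21% without PPARγ2KO replicate 1, 1.41% and 1.4% without ob/ob replicate 2 and 3, and 0.566%, 1.33% and 1.32% without POKO replicate 1, 2 and 3. Gbp4, Ifit1, Ifit2, Ifit3 and Igtp were called under all 21 alternatives run for this comparison.

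Other genes of the interferon pathway, from lists of ligands, signalling proteins and further induced genes, were read beside the 36. Of 19 ligand genes 12 had a probe, and at most 8 of the 12 were above background on an array. Ifnb1 was called in ob/ob vs. WT (adjusted p = 0.0244) although its probe cleared background on 1 of the ob/ob arrays and never in WT, so no fold is given. Ifng, whose probe cleared background on 2 of the ob/ob arrays and never in WT, was not called (adjusted p = 0.068). Of 19 measured receptors, kinases, STATs and inhibitors, those called higher in ob/ob included Irf5 (1.84, adjusted p = 0.0117) and the phosphatase Ptpn6 (0.91, 0.0261). Ifnlr1, the receptor of type III interferons, was lower (-0.91, adjusted p = 0.0434). Irf5 was also called in POKO vs. WT (1.68, adjusted p = 0.0328).

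Of 52 further measured interferon-stimulated genes, 35 were called higher in ob/ob vs. WT and none lower, against 4.92% of all probes called higher. The median was 1.27 (all probes -0.08), and none had an unadjusted p under 0.05 in the lower direction. For several the WT probes never cleared background, which leaves a lower limit for ob/ob: at least 8.77-fold for the T cell attractant Cxcl9, while Ciita, the master regulator of MHC class II, was at least 6.36-fold higher and Slfn5 at least 2.68-fold. Cxcl10 was 1.22 higher. More GTPases were called, namely Ifi47 (3.07), Tgtp1 (3.06), Gbp6 (2.47), Gbp5 (2.06), Gbp7 (1.78), Gbp9 (1.57) and Irgm2 (1.16). Components of nuclear bodies and relatives rose as well, with Sp110 at 3.41, Sp100 at 2.38 (above background on 2 WT arrays) and Pml at 0.55.

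Genes of MHC class I loading were also called: Psmb9 (1.96), Psmb8 (1.76), B2m (1.58) and Tap2 (0.89). The remaining called genes were Ifi27l2a (3.29), Trim30a (2.59), Trim30d (2.52), Ifit3b (2.26), Cd274 (1.77), Slfn2 (1.73), Phf11d (1.73), Epsti1 (1.51), Rtp4 (1.45), Parp14 (1.30), Trafd1 (1.22), Helz2 (0.92), Parp9 (0.87), Tor3a (0.87), Cmpk2 (0.87), Adar (0.72) and Parp12 (0.48). Probes of Ifit3b and Ifit3, and of Trim30a and Trim30d, belong to near-identical genes and may share target RNA. In POKO vs. WT, 5 of the 52 were called, against 0.163% of all probes called higher: Trim30a (2.33), Gbp6 (1.90), Ifit3b (1.85), Gbp9 (1.49) and Cmpk2 (0.69).

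**Figure D4:**
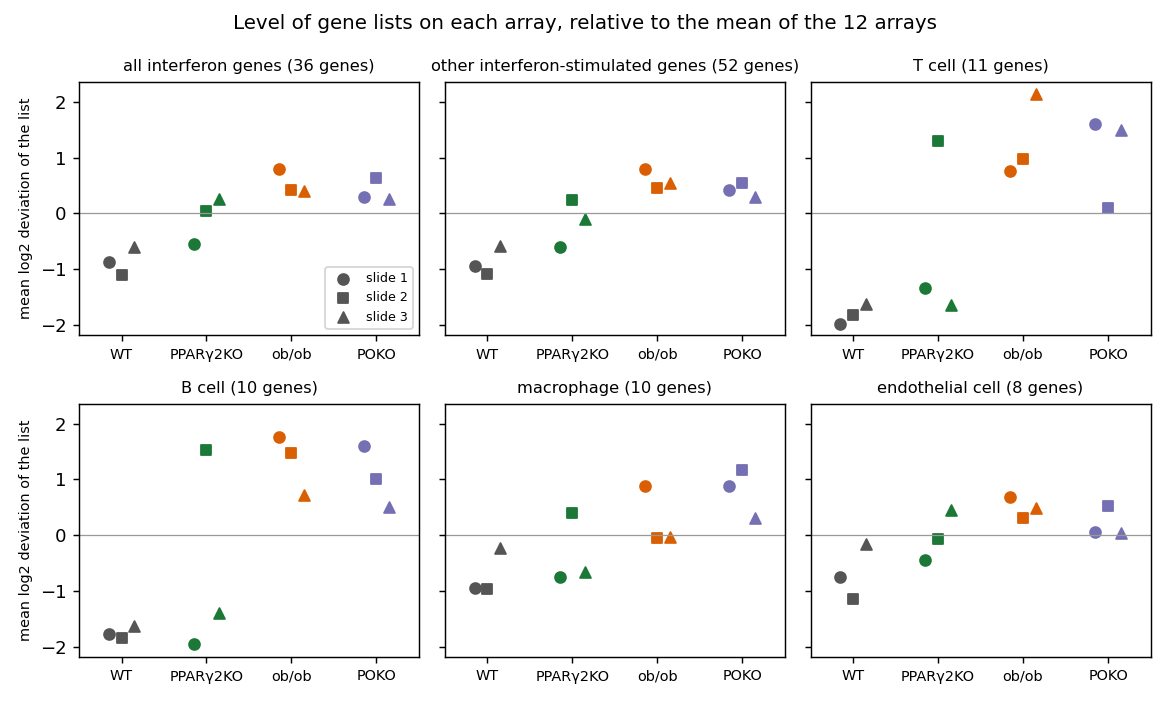
Points give, for each array, the mean over the genes of a list of the log2 signal minus the gene's mean over the 12 arrays; symbols mark the slide. The 36 interferon genes average lowest on the 3 WT arrays, and the T and B cell lists are low on 5 lean arrays and high on PPARγ2KO replicate 2 and the leptin-deficient arrays.

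Markers of immune cells moved with the genotypes too. The T cell list (11 measured genes) averaged -1.98 to -1.62 in WT relative to its mean over the 12 arrays, 0.77 to 2.15 in ob/ob and 0.10 to 1.61 in POKO. In PPARγ2KO it was -1.34, 1.30 and -1.64. From 4 to 6 of the 11 genes were above background on a WT array, and all 11 on every leptin-deficient array. In ob/ob vs. WT 8 of 11 were called, all higher, against 4.92% of all probes called higher. Among them were Cd3d (6.42), Cd5 (3.86) and Lck (2.51). Cd3d and Cd5 cleared background on only 1 WT array each, so the size of their differences is uncertain. Lower limits were at least 7.38-fold for Zap70, 6.49-fold for Cd8a, 6.11-fold for Cd3g and 5.87-fold for Cd2. The markers not called included 2 that were lower (down to -1.48), 1 of them at an unadjusted p under 0.05. Over the 4 T cell markers above background on all 12 arrays the median was 0.57, against 3.86 over the list. Of 10 B cell markers 6 were called, all higher. Among them were Cd79b (5.70), Fcmr (5.29, above background on 2 WT arrays), Ms4a1 (at least 19.6-fold), Fcer2a (at least 4.01-fold) and Blk (at least 1.47-fold). The B cell list read -1.85 to -1.63 in WT, 0.72 to 1.77 in ob/ob and 0.51 to 1.60 in POKO.

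Fewer markers of other cells passed the test. Of 9 NK and cytotoxic markers Gzmb was called (at least 7.22-fold), and Klrd1 missed the threshold (adjusted p = 0.055). In that list 5 were higher and 4 lower, with 2 of the lower ones at an unadjusted p under 0.05. On no array were 4 of the 9 above background. Of 10 macrophage markers C1qa was called (1.34), while Lyz2 (2.18, adjusted p = 0.117) and Fcgr1 (1.88, 0.054) were not. Here 8 were higher and 2 lower, down to -0.70. Of 6 dendritic cell markers Ccr7 was called (3.06), and Itgax was not (0.71). Among the 6, 4 were higher and 2 lower, with 1 of the lower ones at an unadjusted p under 0.05. Of 8 endothelial markers 3 were called, Esam (1.46), Tie1 (1.19) and Cdh5 (1.17), and Vwf was at 1.62 (adjusted p = 0.057). All 8 were higher at an unadjusted p under 0.05, against 12.3% of all probes, with a median of 1.18. No fibroblast marker was called by limma (0 of 7 at an unadjusted p under 0.05; Pdgfra -0.69, Dcn 0.57), and no adipocyte marker (0 of 4; Retn and Plin1 were not above background on the ob/ob arrays). No acinar marker was called either (1 of 12 had an unadjusted p under 0.05), and the largest differences there were Ptf1a (-1.82) and Cela1 (-0.30). Krt19 (-1.57), Cftr (-1.33) and Sox9 (-0.73), of 7 duct markers, were lower in ob/ob. Another 2 of the 7 were higher, up to 0.72, both at an unadjusted p under 0.05 and not called. Of 15 endocrine markers Pcsk1 (1.72) and Nkx6-1 (1.09) were called higher, and Chga was at 1.26 (adjusted p = 0.072). In that list 12 were higher and 3 lower, down to -1.13, with a median of 0.50.

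The array of a genotype that was highest for the interferon genes was also highest for the endothelial markers. In ob/ob and POKO it was highest for the fibroblast markers as well. The interferon genes did not run with the lymphocyte markers on every array. On the WT arrays the 36 genes averaged -1.10 to -0.60 relative to their mean over the 12 arrays, on ob/ob 0.41 to 0.80 and on POKO 0.26 to 0.63. PPARγ2KO replicate 3 read 0.26 on this scale, the same as POKO replicate 3, while its T and B cell lists read -1.64 and -1.40, near the WT arrays. PPARγ2KO replicate 2 read 0.05 for the interferon genes and 1.30 and 1.53 for the T and B cell lists. POKO replicate 2 was the highest POKO array for the interferon genes (0.63) and the lowest for the T cell list (0.10). PPARγ2KO replicate 2 was the highest PPARγ2KO array for Iigp1, Gbp4, Gbp2, Zbp1, Irf8, Ifngr1, Ifitm1 and Ifitm3, and replicate 3 was so for the other 28 genes. The part of the immune, endothelial and fibroblast markers in the differences of the interferon genes was not tested.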

How the data were processed

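Islet RNA was hybridised to Agilent single-colour mouse arrays, and per the file headers each array was read with Feature Extraction (version 10.1.1.1 in the submitters' processing notes). The deposited scanner files hold intensity values on a linear scale, already background-corrected by that software. The authors also deposited a table of normalized log2 values, used as an alternative. The processed signals of the 12 arrays were quantile-normalized over non-control spots and log2-transformed, 919 spots marked as outliers were left out, and spots of a probe were averaged. One limma model (version 3.58.1, R 4.3.3, with the data.table package, 1.17.8) with a mean per genotype was fitted to 41174 probes, and p-values were adjusted by Benjamini-Hochberg in each comparison, with 0.05 as the threshold. ± after a difference is the SE. Where a group's arrays all left a probe short of well above background, the fold difference is a lower limit. The scripts were tested on simulated data. The number of arrays limits the precision.

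The genes, lists and tests were chosen with earlier results of these data known. Values on every array are given for each gene called in any comparison and for the genes with the 6 largest and 3 smallest differences in ob/ob vs. WT and in leptin-deficient vs. lean islets; other lists are given by counts, their called genes and their 2 largest differences. Per the file headers a replicate number is a slide. Deviations from the genotype means correlated at -0.13 to 0.18 between arrays of the same number (median 0.03, 4 of 18 pairs over 0.1). Between arrays of different numbers they correlated at -0.18 to 0.16 (median -0.04, 3 of 36 pairs over 0.1). The numbers were not taken as pairing the samples in the main fit, and the slide as a block is an alternative. The others were scaling to the 75th percentile, normexp background correction, a filter on dim probes, outlier spots kept, only the compared genotypes, array weights, a fold criterion, the mean of a gene's probes and each array left out in turn. A few genes of the other lists are not reported here.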

Additional observations from a re-analysis of the deposited data

How the results depend on the processing

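No alternative reversed a called gene. Of the counts, those in PPARγ2KO vs. WT, POKO vs. ob/ob and the interaction were 0 under every alternative run. The count in POKO vs. WT, 1 as reported, was 8 with scaling to the 75th percentile, 0 with normexp background correction, 16 with dim probes left out, 7 with only the compared genotypes, 26 with array weights, 3 with the authors' normalized values, and 0 to 10 with single arrays left out. The count in ob/ob vs. WT, 24 as reported, was 10 with only the compared genotypes and 2 to 27 with single arrays left out. The count in leptin-deficient vs. lean islets, 22 as reported, was 13 when a change of at least 1 on the log2 scale was also required (2.38% of all probes called higher), and 5 to 25 with single arrays left out (0.566% to 6.57%). The median in ob/ob vs. WT was 1.05 with normexp and 1.30 with scaling to the 75th percentile, which moved the median of all probes from -0.08 to -0.19. The causes were not tested. With the slide as a replicate block the counts were 0 in POKO vs. WT (0.017% of all probes called higher), 21 in ob/ob vs. WT (4.98%) and 21 in leptin-deficient vs. lean islets (3.96%). The calls lost were those of Ifit2 in POKO, Irf8, Isg15 and Oas2 in ob/ob, and Irf8 in leptin-deficient islets. The median stayed above 0 in each comparison with WT when any array was left out: 1.33 to 1.61 in ob/ob, 0.93 to 1.36 in POKO and 0.66 to 1.07 in PPARγ2KO. Only-compared-genotypes fits give no interaction and no leptin-deficient vs. lean value. With 3 pooled arrays a genotype, differences within the intervals given could not be told from 0.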
